A study of Mus musculus with 12 samples.

Results

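Mitosis and G2/M genes are the genes whose transcripts accumulate as a cell passes from G2 phase into mitosis and divides. Of 52 such genes proposed, 51 had a probe set with their symbol in the table of log2 values, among 18193 genes in all, and Ccnb1 was not analysed here. The members were taken by gene symbol, from a list drawn up with earlier results of these data known, and a gene with several probe sets was read at the brightest, by the mean of the 12 arrays.

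A dividing cell uses these genes in order. Cyclins with Cdk1 start mitosis, kinases and motors build the spindle, the checkpoint holds anaphase until each kinetochore is attached, and the midzone proteins then split the cell. Most hepatocytes of an adult liver are quiescent and re-enter the cycle after injury, while stellate cells and macrophages of an injured liver can divide as well. Transcription of the genes is held off in resting cells by the DREAM complex and switched on late in the cycle by the MuvB core with B-Myb and FoxM1, both acting through the cell cycle genes homology region (CHR) of their promoters, next to boxes bound by NF-Y.

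The arrays came from a study of lnc-LFAR1, a liver long noncoding RNA, in fibrosis caused by carbon tetrachloride (CCl4). The animals were Balb/c males, 8 weeks old when obtained, before acclimatization and treatment. All received injections into the peritoneum 3 times per week for 6 weeks, and all received a lentivirus through the tail vein after the first 2 weeks. Group NC had olive oil and the control virus Lenti-NC, NC+CCl4 had 5% CCl4 in olive oil (0.3 ml/kg) and Lenti-NC, shLFAR1 had oil and the hairpin virus Lenti-shLFAR1, and shLFAR1+CCl4 had CCl4 and Lenti-shLFAR1. Each group had 3 arrays of whole-liver RNA. Per the study's methods the hairpin was driven by the H1 promoter, which is active in any infected cell, in a vector that also carried GFP. No probe set bears the symbol of lnc-LFAR1, so the knockdown was not checked on these arrays. Hepatocyte markers were high in the liver arrays, with Alb (albumin) at a mean of 14.3 log2 units over the 12 arrays.

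Promoter sequence shows what the members share beyond their role. RefSeq promoters (build GRCm38.p6, from 250 bases before to 50 after the transcript start) were matched by symbol for 43 of the 51 members, and TTTGAA, the core of the CHR, was found on either strand in 33 of these (76.7%), against 20.2% of the 27025 genes of the table. The others are Aurkb, Ccna2, Cdc25c, Foxm1, Kif20a, Pbk, Stmn1 and Tpx2. CCAAT, the NF-Y box, was found on either strand in 31 members (72.1%) against 41.1% of all genes. Windows of 6 members from different steps of mitosis are printed to show how the motifs are placed, each from 120 bases before to 50 after the start and read 5′ to 3′ along the gene. Capitals mark TTTGAA (or TTCAAA, its reverse complement) and CCAAT (or ATTGG). The windows lie at chr10:69352863-69353032 (minus strand) for Cdk1, the kinase of mitotic entry, chr9:70421505-70421674 (minus strand) for Ccnb2 (cyclin B2), chr7:122159315-122159484 (plus strand) for the kinase Plk1, chr2:164769809-164769978 (plus strand) for Ube2c, the ubiquitin conjugating enzyme of anaphase, chr4:124936868-124937037 (minus strand) for Cdca8 (borealin of the passenger complex) and chr11:99024140-99024309 (minus strand) for Top2a (topoisomerase II alpha).
Cdk1: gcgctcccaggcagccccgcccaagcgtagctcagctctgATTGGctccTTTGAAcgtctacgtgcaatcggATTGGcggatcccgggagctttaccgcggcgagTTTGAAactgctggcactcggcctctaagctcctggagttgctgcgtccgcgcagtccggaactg
Ccnb2: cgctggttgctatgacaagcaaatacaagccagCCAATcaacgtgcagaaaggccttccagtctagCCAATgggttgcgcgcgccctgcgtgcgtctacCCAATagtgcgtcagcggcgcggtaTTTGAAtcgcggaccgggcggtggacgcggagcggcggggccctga
Plk1: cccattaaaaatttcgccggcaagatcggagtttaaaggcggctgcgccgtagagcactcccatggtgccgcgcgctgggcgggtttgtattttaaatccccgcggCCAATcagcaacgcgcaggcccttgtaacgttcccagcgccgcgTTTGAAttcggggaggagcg
Ube2c: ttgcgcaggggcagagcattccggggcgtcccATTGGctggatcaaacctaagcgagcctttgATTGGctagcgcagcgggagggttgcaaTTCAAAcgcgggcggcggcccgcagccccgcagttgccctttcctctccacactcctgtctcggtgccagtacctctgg
Cdca8: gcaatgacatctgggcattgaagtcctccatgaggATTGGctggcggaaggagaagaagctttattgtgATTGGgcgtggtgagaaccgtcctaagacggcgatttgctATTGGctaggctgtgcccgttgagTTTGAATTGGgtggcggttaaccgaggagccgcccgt
Top2a: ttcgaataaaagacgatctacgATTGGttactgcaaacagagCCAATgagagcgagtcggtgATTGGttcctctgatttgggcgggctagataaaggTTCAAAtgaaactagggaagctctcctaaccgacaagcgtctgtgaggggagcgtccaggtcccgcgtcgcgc
All 6 windows hold a TTTGAA match within 50 bases of the start. They were picked by hand as examples, and of the 43 members 30 held such a match. Ccnb2 holds 3 CCAAT boxes upstream of it, Top2a 3 and Cdk1 2, while Plk1 holds 1. In Cdca8 the TTTGAA match and an ATTGG share letters, the only such overlap among the member promoters.

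TTTGAA lay close to the start. Within 50 bases of it, 30 of the 43 members held a match (69.8%), against 5.72% of all genes, and 35 of the 46 matches in the members lay there. The median first base of the 78 CCAAT matches lay 65 bases upstream of the start, and that of the TTTGAA matches 2 bases downstream. The 43 members had 46 promoters, and these match counts and medians take a site once for each promoter that holds it. Ect2 and Prc1 have such repeated sites. Both motifs stood in 27 members (62.8%) against 7.97% of all genes. A pair of CCAAT boxes 31 to 35 bases apart, a spacing chosen after the positions were seen, occurred in 9 members (20.9%) against 1.53% of genes. TATAAA was found in 1 member (2.33%) against 15.7% of genes, and GCGGGAA, of the E2F type, in 1 member (2.33%) against 5.29%. A match is a run of letters and not a measured binding site. The 6 members with none of TTTGAA, its variant TTCGAA or CCAAT changed by 1.04 to 4.30 log2 units in NC+CCl4 against NC, and the 33 with TTTGAA by 0.18 to 4.25.

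**Figure D1:**
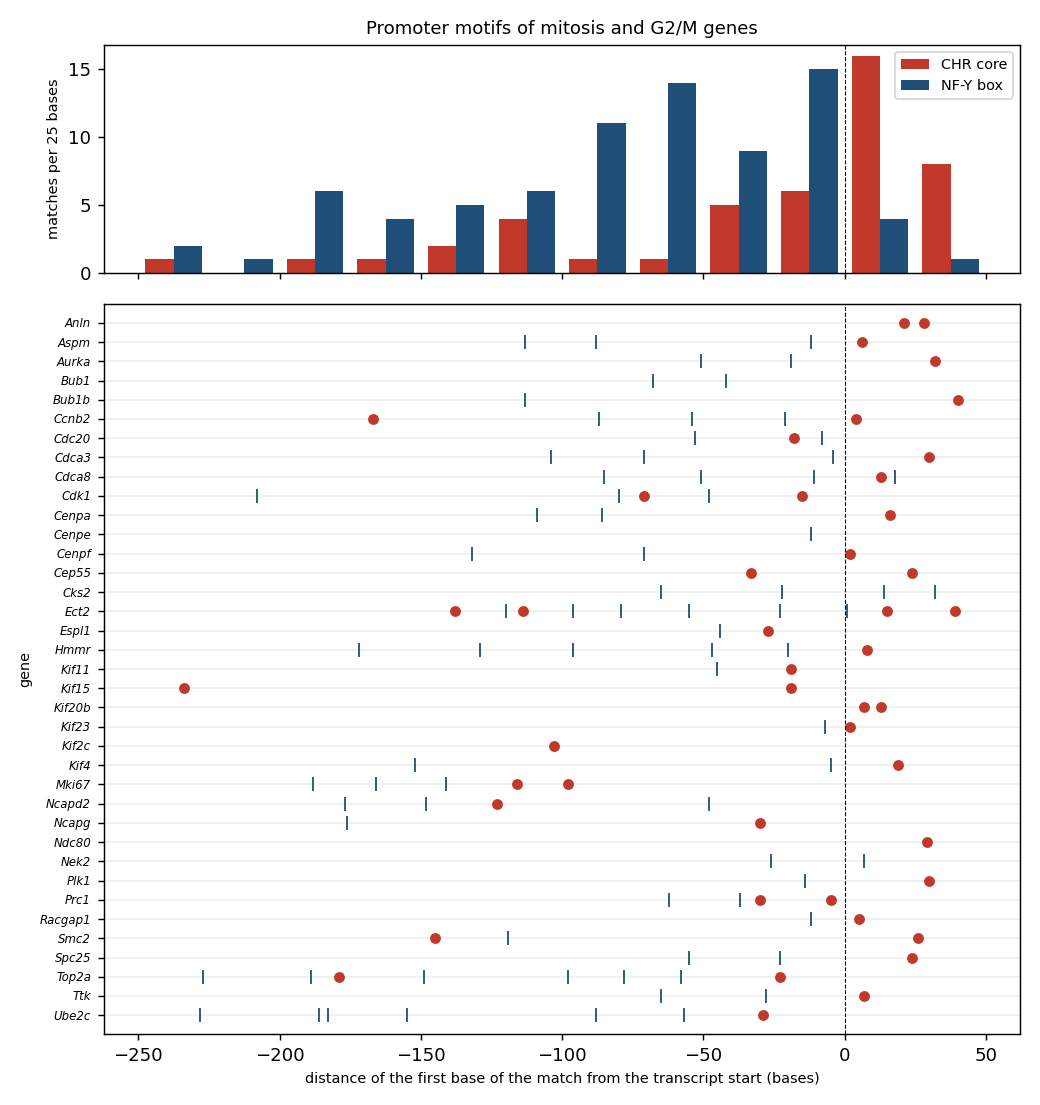
Position of the CHR core (TTTGAA) and the NF-Y box (CCAAT) in the promoters of the members that hold at least 1 of them. The x axis is the distance of the first base of a match from the transcript start in bases, the lower panel has 1 gene per row and the upper panel counts matches per 25 bases, with CHR cores crowding around the start and NF-Y boxes mostly upstream of it. A site shared by promoters of a gene is shown once for each.

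Most of the members rose with CCl4 and the control virus. In NC+CCl4 against NC, 40 of 51 were called higher and 0 lower by limma (adjusted p under 0.05 over all 18193 genes), where 7.66% of all genes were called higher and 5.41% lower. The methods' t-test with their fold threshold called 30, as it did 6.94% of all genes. The study names that test for comparing 2 groups, but for these arrays it gives only a fold and a p threshold. Its use on these arrays was therefore a choice made here, and its shares of all genes, here and below, are not split by direction. After Benjamini-Hochberg adjustment the same test called 0 (1.1% of genes were higher), and the fit without moderation called 15 (4.27%). The median log2 change of the members was 2.42, and that of all genes was -0.05. With the mean of the probe sets of each gene the median of the members was 1.55. In whole liver, more dividing cells and more of these transcripts per cell cannot be told apart. The 3 arrays of NC+CCl4 lay above the 3 of NC in 41 members, as they did in 13.8% of all genes. In oil-treated liver the members were dim, with 42 below the median gene (5.54 log2 units) and 23 at or below 4 log2 units, where a value may be background and a fold change is then understated. Between the virus groups in oil no difference passed the test. In shLFAR1 against NC the median log2 change was -0.02, the range -0.47 to 0.32, and limma made 0 calls (0.0% of genes), with 0 members at an unadjusted p under 0.05 (1.49% of genes were higher there and 1.28% lower) and 0 by the methods' t-test and fold threshold (0.17%). The arrays did not overlap in 4 members that were higher and 2 that were lower, where 6.01% and 4.76% of all genes were.

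**Figure D2:**
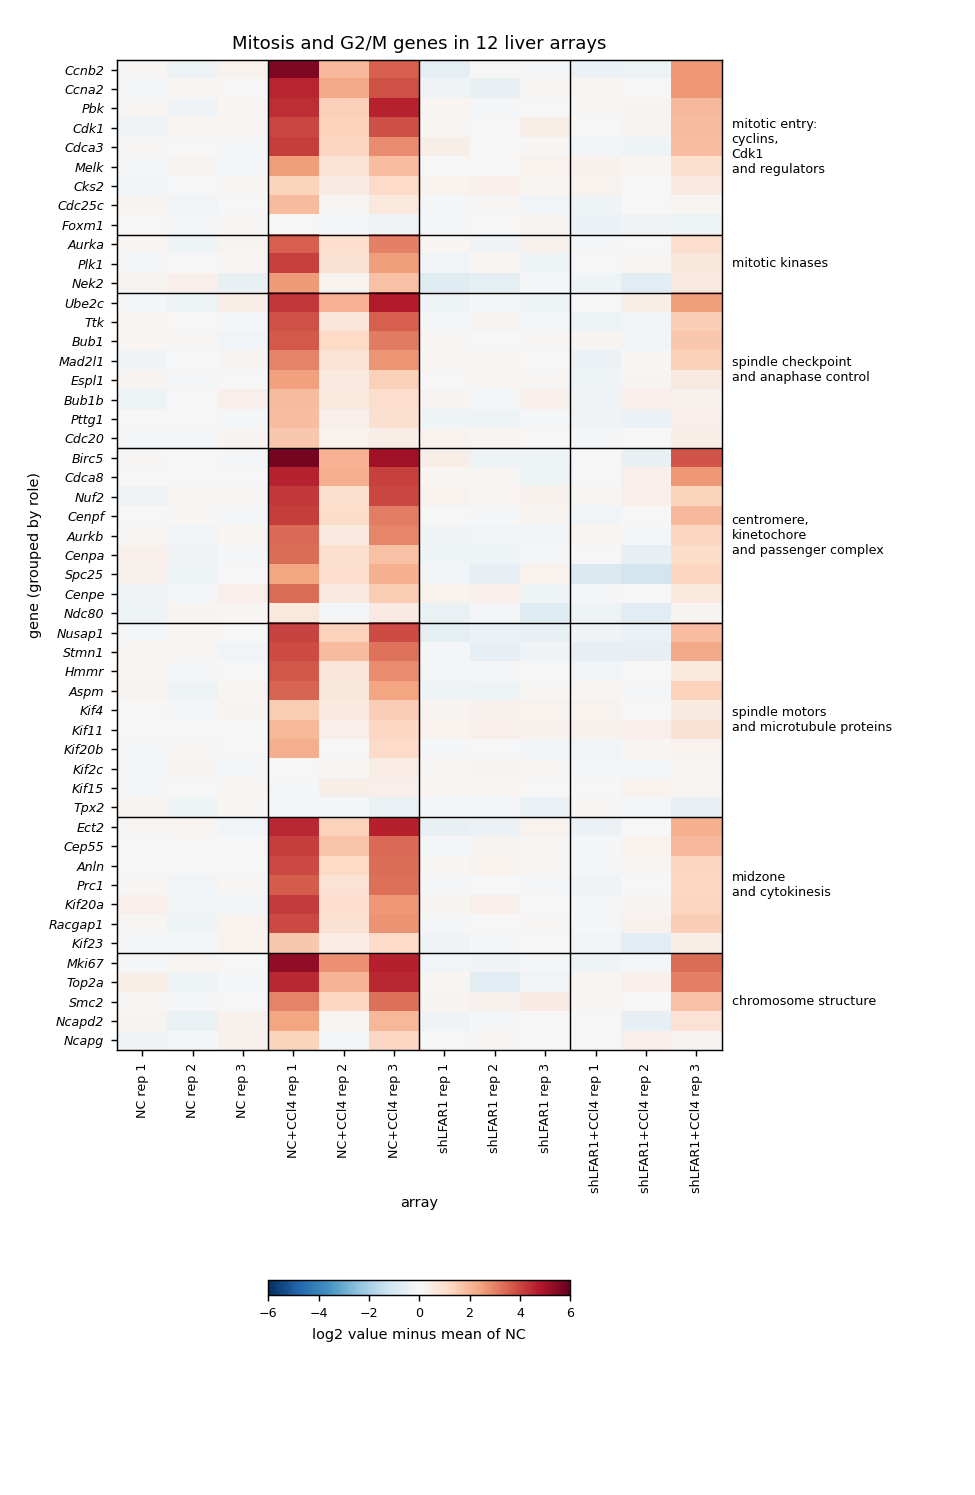
Log2 value of the 51 genes in each of the 12 arrays minus the gene's mean in NC, with genes grouped by role in rows and arrays in columns (red higher, blue lower). The 3 NC+CCl4 arrays and replicate 3 of shLFAR1+CCl4 are red in most rows, and the other 8 arrays stay near the NC mean.

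Mitotic entry genes (9 measured) were led by the cyclins, and 7 were called higher. Ccnb2, cyclin B2, read 4.25, 3.88 and 4.39 in NC, 9.78, 6.11 and 7.76 in NC+CCl4, 3.64, 4.14 and 4.12 in shLFAR1, and 3.84, 3.85 and 6.78 in shLFAR1+CCl4. It was 13.1-fold higher in NC+CCl4 than in NC (log2 change 3.71 ± 0.83, SE, adjusted p = 0.0124), and all 3 NC+CCl4 arrays lay above the oil arrays, with replicate 2 below replicate 3 of shLFAR1+CCl4. Ccna2, cyclin A2, which serves in S phase and early mitosis, read 4.71, 4.97 and 4.82 in NC, 9.39, 7.09 and 8.64 in NC+CCl4, 4.60, 4.38 and 4.90 in shLFAR1, and 4.93, 4.84 and 7.44 in shLFAR1+CCl4. It rose 11.7-fold (3.54 ± 0.63, adjusted p = 0.00407) with the same order of arrays. Pbk, a mitotic kinase, read 4.02, 3.71 and 4.08 in NC, 8.35, 5.37 and 8.55 in NC+CCl4, 4.03, 3.80 and 3.92 in shLFAR1, and 4.03, 4.12 and 5.87 in shLFAR1+CCl4. Here replicate 3 and not replicate 1 was the highest of NC+CCl4, and the change was 11.2-fold (3.49 ± 0.68, adjusted p = 0.00643). Cdk1 itself rose 8.48-fold (3.08 ± 0.61), Cdca3 6.73-fold, the kinase Melk 3.37-fold and Cks2, a small subunit of Cdk complexes that was already bright in oil (8.65 to 9.13), 2.00-fold. Cdc25c, the phosphatase that activates Cdk1, was not called (0.88 ± 0.33, adjusted p = 0.106). Foxm1, the transcription factor of the late cycle genes, gave the smallest change of the group, -0.12 ± 0.11 (adjusted p = 0.522), and read 6.33, 6.29 and 6.40 in NC, 6.31, 6.22 and 6.13 in NC+CCl4, 6.25, 6.35 and 6.49 in shLFAR1, and 6.0, 6.12 and 6.02 in shLFAR1+CCl4. Its groups overlapped in NC+CCl4 against NC, and the sign of its change depended on the probe set, with 1.01 at the most variable of its sets.

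A group of spindle pole and polo kinases held Aurka, Plk1 and Nek2, of which 2 were called, while kinases of other steps are given with those steps. Aurka, aurora A of the spindle pole, read 4.71, 4.34 and 4.78 in NC, 8.22, 5.63 and 7.62 in NC+CCl4, 4.66, 4.41 and 4.88 in shLFAR1, and 4.50, 4.58 and 5.67 in shLFAR1+CCl4. It was 5.85-fold higher in NC+CCl4 (2.55 ± 0.51, adjusted p = 0.00717). Plk1, polo-like kinase 1, which acts from entry to cytokinesis, read 4.37, 4.41 and 4.54 in NC, 8.54, 5.34 and 6.95 in NC+CCl4, 4.29, 4.56 and 4.17 in shLFAR1, and 4.39, 4.50 and 5.13 in shLFAR1+CCl4, a 5.69-fold change (2.51 ± 0.55, adjusted p = 0.0110). All 3 shLFAR1+CCl4 arrays of Plk1 lay below all 3 of NC+CCl4. Nek2, a centrosome kinase, read 6.26, 6.42 and 5.64 in NC, 8.67, 6.30 and 7.86 in NC+CCl4, 5.38, 5.53 and 6.01 in shLFAR1, and 5.84, 5.44 and 6.71 in shLFAR1+CCl4. Replicate 2 of NC+CCl4 lay within the NC range, and Nek2 was not called (1.50 ± 0.49, adjusted p = 0.0639).

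Of 8 genes of the spindle checkpoint and anaphase control, 7 were called higher. Ube2c, the E2 enzyme of the anaphase promoting complex, read 4.17, 3.91 and 4.62 in NC, 8.48, 6.31 and 8.97 in NC+CCl4, 3.97, 4.11 and 3.93 in shLFAR1, and 4.19, 4.57 and 6.73 in shLFAR1+CCl4. Its change was 12.9-fold (3.69 ± 0.66, adjusted p = 0.00415), with replicate 3 the highest of NC+CCl4. Ttk (Mps1), the kinase at the top of the checkpoint, read 3.27, 3.18 and 3.03 in NC, 7.0, 3.89 and 6.74 in NC+CCl4, 3.03, 3.31 and 3.10 in shLFAR1, and 2.86, 2.98 and 4.63 in shLFAR1+CCl4. Bub1, a checkpoint kinase at kinetochores, read 2.95, 2.88 and 2.64 in NC, 6.48, 4.01 and 5.95 in NC+CCl4, 2.89, 2.81 and 2.87 in shLFAR1, and 2.98, 2.66 and 4.46 in shLFAR1+CCl4. Ttk rose 6.57-fold (2.72 ± 0.66, adjusted p = 0.0179) and Bub1 6.30-fold (2.66 ± 0.54, adjusted p = 0.00741), and in both the lowest NC+CCl4 array, replicate 2, lay below replicate 3 of shLFAR1+CCl4. The checkpoint protein Mad2l1 rose 4.51-fold, separase (Espl1) 2.80-fold, Bub1b 2.29-fold and securin (Pttg1) 2.06-fold. Cdc20, the activator of the anaphase promoting complex, gave the smallest change at its brightest probe set, 0.74 ± 0.29 (adjusted p = 0.114), and read 6.59, 6.58 and 6.81 in NC, 8.29, 6.87 and 7.04 in NC+CCl4, 6.88, 6.78 and 6.71 in shLFAR1, and 6.56, 6.69 and 7.04 in shLFAR1+CCl4. There the NC+CCl4 arrays lay above those of NC by a narrow margin in replicates 2 and 3.

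The centromere, kinetochore and passenger complex group had 8 of 9 members called higher. Birc5, survivin of the chromosomal passenger complex, read 3.36, 3.34 and 3.24 in NC, 9.07, 5.42 and 8.36 in NC+CCl4, 3.66, 3.05 and 3.06 in shLFAR1, and 3.34, 2.87 and 7.07 in shLFAR1+CCl4. It was 19.7-fold higher in NC+CCl4 than in NC (4.30 ± 1.00, adjusted p = 0.0144), the largest change of a member at the probe sets used, from NC values that may be background. With a floor at 4 log2 units its change was 3.62, below that of Mki67 (3.99). Cdca8, borealin of the same complex, read 4.09, 4.06 and 4.02 in NC, 8.67, 6.17 and 8.17 in NC+CCl4, 4.20, 4.15 and 3.74 in shLFAR1, and 4.05, 4.38 and 6.68 in shLFAR1+CCl4, a 12.2-fold change (3.61 ± 0.65, adjusted p = 0.00415). Aurkb, the kinase of the complex, rose 4.98-fold, so Birc5, Cdca8 and Aurkb were all called. Nuf2, a subunit of the NDC80 complex that binds microtubules, read 2.53, 2.81 and 2.82 in NC, 6.98, 3.68 and 6.72 in NC+CCl4, 2.95, 2.83 and 2.97 in shLFAR1, and 2.77, 3.02 and 4.08 in shLFAR1+CCl4. Nuf2 rose 8.41-fold (3.07 ± 0.65, adjusted p = 0.00910) and Spc25, another subunit, 3.59-fold. Ndc80, which names the complex, was not called (0.35 ± 0.23, adjusted p = 0.379) and read 3.87, 4.26 and 4.21 in NC, 4.76, 4.00 and 4.62 in NC+CCl4, 3.71, 3.97 and 3.39 in shLFAR1, and 3.82, 3.48 and 4.28 in shLFAR1+CCl4, with overlapping groups. Cenpf rose 6.88-fold, the histone variant Cenpa 4.03-fold and the kinetochore motor Cenpe 3.56-fold.

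Spindle motors and microtubule proteins were the group with the lowest median log2 change at the probe sets used, 1.20, and 6 of 10 were called higher. Nusap1, which bundles spindle microtubules, read 4.02, 4.23 and 4.13 in NC, 8.16, 5.50 and 8.06 in NC+CCl4, 3.58, 3.76 and 3.66 in shLFAR1, and 3.91, 3.75 and 6.0 in shLFAR1+CCl4. It rose 8.68-fold (3.12 ± 0.65, adjusted p = 0.00853). Stmn1, stathmin, which destabilizes microtubules, read 7.27, 7.22 and 6.97 in NC, 11.05, 9.04 and 10.40 in NC+CCl4, 7.05, 6.65 and 6.95 in shLFAR1, and 6.67, 6.64 and 9.41 in shLFAR1+CCl4. Its change was 8.07-fold (3.01 ± 0.63, adjusted p = 0.00874), and replicate 3 of shLFAR1+CCl4 again lay above replicate 2 of NC+CCl4. Hmmr, a hyaluronan receptor that also binds spindle microtubules, read 4.56, 4.31 and 4.48 in NC, 8.16, 5.20 and 7.27 in NC+CCl4, 4.33, 4.34 and 4.49 in shLFAR1, and 4.30, 4.48 and 5.09 in shLFAR1+CCl4, a 5.37-fold change (2.42 ± 0.53, adjusted p = 0.0104). For Hmmr all shLFAR1+CCl4 arrays lay below all NC+CCl4 arrays. Aspm rose 4.56-fold, the chromokinesin Kif4 2.32-fold and Kif11 (Eg5), which pushes spindle poles apart, 2.28-fold. Kif20b, Kif2c, Kif15 and Tpx2 were not called at the probe sets used, with log2 changes of 1.12, 0.18, 0.18 and -0.18. Other sets of Kif2c (1.21 and 2.18) and Tpx2 (1.94 and 1.67) were called higher. Kif15, a spindle kinesin, had the smallest change of the group (0.18 ± 0.13, adjusted p = 0.419) and read 4.45, 4.56 and 4.67 in NC, 4.44, 4.91 and 4.88 in NC+CCl4, 4.68, 4.68 and 4.56 in shLFAR1, and 4.59, 4.75 and 4.67 in shLFAR1+CCl4.

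All 7 genes of the midzone and cytokinesis were called higher. Ect2, the exchange factor that activates RhoA at the cleavage furrow, read 3.06, 3.10 and 2.86 in NC, 7.51, 4.36 and 7.65 in NC+CCl4, 2.56, 2.65 and 3.20 in shLFAR1, and 2.66, 2.97 and 5.16 in shLFAR1+CCl4. It rose 11.3-fold (3.50 ± 0.77, adjusted p = 0.0108). Cep55, which recruits the abscission machinery, read 2.67, 2.72 and 2.75 in NC, 6.85, 4.41 and 6.12 in NC+CCl4, 2.65, 2.86 and 2.77 in shLFAR1, and 2.61, 2.91 and 4.65 in shLFAR1+CCl4. Anln, anillin of the contractile ring, read 3.34, 3.40 and 3.37 in NC, 7.33, 4.58 and 6.72 in NC+CCl4, 3.43, 3.59 and 3.46 in shLFAR1, and 3.28, 3.49 and 4.67 in shLFAR1+CCl4. Cep55 rose 8.45-fold (3.08 ± 0.55, adjusted p = 0.00415) and Anln 7.15-fold (2.84 ± 0.54, adjusted p = 0.00554). The oil arrays of Cep55 spanned only 2.65 to 2.86, and the lowest NC+CCl4 array was at 4.41. Prc1, which bundles midzone microtubules, rose 6.09-fold, the kinesin Kif20a 6.06-fold and Racgap1, a partner of Ect2, 5.77-fold. Kif23, the kinesin that pairs with Racgap1, changed least (2.11-fold, 1.08 ± 0.28, adjusted p = 0.0262) and read 4.53, 4.46 and 4.79 in NC, 6.22, 5.05 and 5.75 in NC+CCl4, 4.39, 4.47 and 4.63 in shLFAR1, and 4.45, 3.93 and 4.99 in shLFAR1+CCl4.

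Chromosome structure genes had 3 of 5 members called higher. Mki67, which encodes the proliferation marker Ki-67, read 3.63, 3.88 and 3.71 in NC, 9.08, 6.47 and 8.42 in NC+CCl4, 3.58, 3.51 and 3.68 in shLFAR1, and 3.48, 3.60 and 7.11 in shLFAR1+CCl4. It was 19.0-fold higher in NC+CCl4 (4.25 ± 0.81, adjusted p = 0.00568). Top2a, which untangles sister chromatids, read 4.04, 3.43 and 3.65 in NC, 8.23, 5.76 and 8.22 in NC+CCl4, 3.79, 3.01 and 3.55 in shLFAR1, and 3.85, 3.99 and 6.73 in shLFAR1+CCl4. Its change was 13.0-fold (3.70 ± 0.73, adjusted p = 0.00671), and replicates 1 and 3 of NC+CCl4 were nearly equal. Smc2, a core subunit of condensin, read 4.96, 4.79 and 4.87 in NC, 7.83, 6.10 and 8.18 in NC+CCl4, 5.05, 5.15 and 5.38 in shLFAR1, and 4.97, 4.86 and 6.61 in shLFAR1+CCl4, a 5.66-fold change (2.50 ± 0.50, adjusted p = 0.00690). The other condensin subunits, Ncapd2 (1.50 ± 0.48, adjusted p = 0.0598) and Ncapg (0.83 ± 0.28, adjusted p = 0.0745), were not called at the probe sets used. Another set of Ncapg was called higher, with a log2 change of 2.59. At the set used, the values of Ncapg were as follows. Ncapg read 3.96, 4.14 and 4.46 in NC, 5.50, 4.13 and 5.41 in NC+CCl4, 4.17, 4.27 and 4.22 in shLFAR1, and 4.21, 4.48 and 4.35 in shLFAR1+CCl4, so that replicate 2 of NC+CCl4 fell within the NC range.

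**Figure D3:**
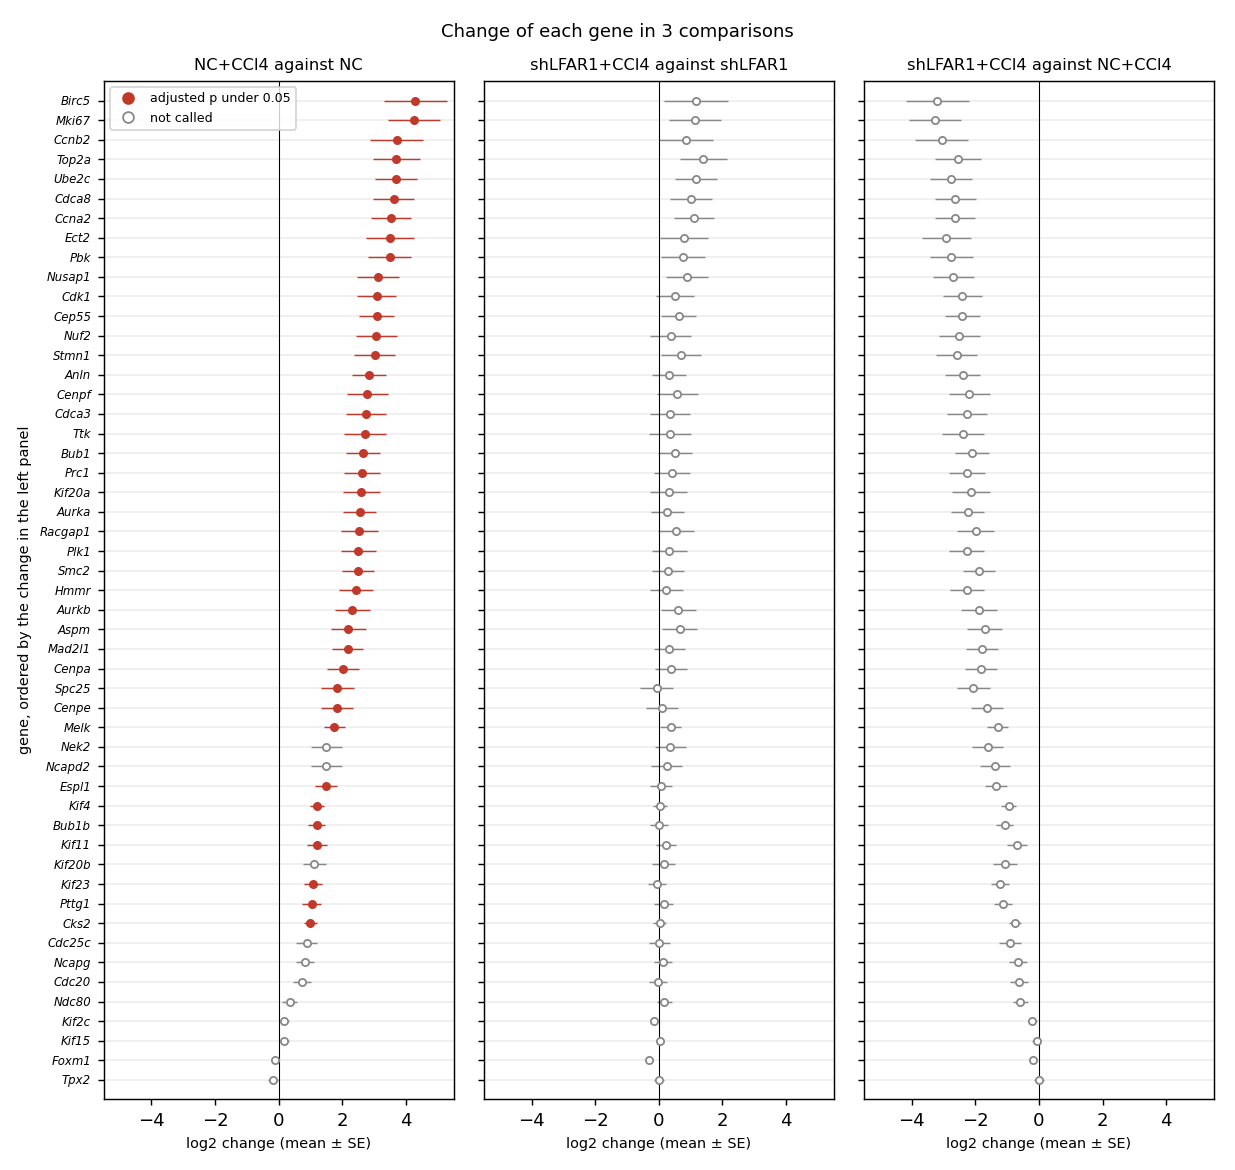
Log2 change of each of the 51 genes with its SE from the limma model in 3 comparisons, ordered by the change in NC+CCl4 against NC. Filled points passed an adjusted p of 0.05, which 40 genes did in the left panel and 0 in the other panels, although 50 of 51 points of the right panel lie below 0.

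The livers of NC+CCl4 differed widely from each other. The mean log2 value of the 51 members, less that of NC, was 3.07, 0.93 and 2.47 in the 3 arrays, and the median over members of the SD between arrays was 1.25, against 0.172 over all genes. Replicate 1 lay above replicate 3 in 45 of 51 members, by a median of 0.59 log2 units, and replicate 3 above replicate 2 in 48, by a median of 1.61. Over all genes these shares were 54.0% and 44.7%. Each array still stood above the oil-treated livers: 47, 40 and 49 of 51 members exceeded all 6 oil arrays in replicates 1, 2 and 3, where 28.7%, 20.2% and 22.2% of all genes did.

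With the hairpin virus the response was seen in 1 liver. The mean of the members less that of NC was -0.10, -0.07 and 1.25 in the 3 shLFAR1+CCl4 arrays, and -0.05, -0.05 and -0.01 in shLFAR1. Members above all 6 oil arrays numbered 2 and 9 in replicates 1 and 2, where 16.7% and 15.1% of all genes were, and 44 in replicate 3, where 22.0% were. In replicates 1 and 2 no member exceeded its shLFAR1 mean by more than 1 log2 unit, and in replicate 3, 31 did. This cut-off was not applied to all genes. In shLFAR1+CCl4 against shLFAR1 no member was called by limma (0.324% of genes higher and 0.0824% lower), and the methods' t-test called 0 as well (1.32%). At an unadjusted p under 0.05 there was 1 member, Foxm1, which was lower (-0.32 ± 0.11, adjusted p = 0.280), as were 5.15% of all genes. The median log2 change was 0.33 with replicate 3 and -0.05 without it. Top2a gave the largest change, 1.40 ± 0.73 (adjusted p = 0.521).

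In replicate 3 of shLFAR1+CCl4 the members that stood highest were mostly those that changed most with the control virus. Across the 51 members its difference from the shLFAR1 mean and the change of NC+CCl4 from NC, which share no array, had a Pearson's r of 0.92 and a Spearman's rho of 0.93, as a description across genes that are not independent. Its members were above those of NC+CCl4 replicate 2 in 40 of 51, where 47.5% of all genes were. They were below those of NC+CCl4 replicate 3 in 50 of 51, where 49.3% of all genes were.

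Between the CCl4 groups the members were lower with the hairpin virus, but none passed the test. In shLFAR1+CCl4 against NC+CCl4 the median log2 change was -1.99, against 0.01 over all genes, and 50 of 51 members were below 0. Calls by limma numbered 0 (0.115% of all genes were called lower and 0.176% higher), the smallest adjusted p was 0.0852 for Anln (-2.40 ± 0.54), and 47 members had an unadjusted p under 0.05, all lower, as did 7.74% of all genes. The methods' t-test with their fold threshold called 0 as well (0.967%). Mki67 differed by -3.26 ± 0.81 (adjusted p = 0.103), Birc5 by -3.19 ± 1.00 (0.169), Ccnb2 by -3.06 ± 0.83 (0.120) and Ect2 by -2.91 ± 0.77 (0.111). In 8 members the arrays did not overlap (5.11% of all genes were lower in this way), namely Foxm1, Plk1, Bub1b, Espl1, Pttg1, Kif4, Hmmr and Kif23. Between arrays of the same replicate number, 49, 49 and 50 members were lower in shLFAR1+CCl4 in replicates 1, 2 and 3, where 49.2%, 44.7% and 49.3% of all genes were. In all 3 of these comparisons 46 members were lower, as were 14.2% of all genes. These values and those of NC+CCl4 against NC share the NC+CCl4 arrays.

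A single array on either side decided that count. Without replicate 3 of shLFAR1+CCl4, 40 members were called lower (4.9% of all genes), and without replicate 2 of NC+CCl4, 45 (2.13%), while leaving out any of the other 10 arrays gave 0. With array weights, which gave replicate 3 of shLFAR1+CCl4 a weight of 0.396 and replicate 1 of NC+CCl4 0.375, 40 were called (3.08%). The interaction, that is the CCl4 change with the hairpin virus minus that with the control virus, had a median of -1.99 over members and 0 calls by limma (4 genes in all were called, 0.022% higher), with 36 members lower at an unadjusted p under 0.05, as were 4.94% of all genes. The smallest adjusted p was 0.310 for Kif4 (-1.17 ± 0.32). It gave 16, 23 and 18 members lower without replicate 3 of shLFAR1+CCl4, without replicate 2 of NC+CCl4 and with array weights, where 2.15%, 0.649% and 1.05% of all genes were.

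Other genes of the cycle were read from fixed lists in NC+CCl4 against NC, where 7.66% of all genes were called higher and 5.41% lower. Of 82 other mitosis genes 35 were called higher and 0 lower, with a median log2 change of 0.74, led by Cdca5 (sororin, which protects cohesion, 3.00 ± 0.58), Shcbp1 (2.93 ± 0.64) and the microtubule protein Ckap2 (2.56 ± 0.60). Of 29 S phase genes 9 were called higher and 1 lower, with 26 changes above 0 and a median of 1.14. The helicase subunits Mcm6 (3.46 ± 0.85) and Mcm5 (3.29 ± 0.81) and the ribonucleotide reductase subunit Rrm2 (3.41 ± 0.84) rose. Mcm10, a loading factor of the replication fork, fell by 1.69 ± 0.25. Of 13 genes in the list of G1 cyclins and kinases, 11 changed above 0 and 3 were called higher. These 3 were cyclin D1 (Ccnd1, 3.39 ± 0.66), the transcription factor E2f2 (1.06 ± 0.17) and cyclin D2 (Ccnd2, 0.59 ± 0.13). Of 20 inhibitors and repressors 5 were called higher and 1 lower, with 11 changes above 0, 9 below and a median of 0.11. Cdkn1a (p21) rose by 2.96 ± 0.55, Cdkn2c (p18) by 2.45 ± 0.22 and Rbl1 (p107, of the DREAM complex) by 2.41 ± 0.44. In shLFAR1+CCl4 against shLFAR1 the one call in these 4 lists was Cdkn2c (1.66 ± 0.22, adjusted p = 0.00561), and in shLFAR1+CCl4 against NC+CCl4 there was none, with 54 of 82, 17 of 29, 6 of 13 and 6 of 20 at an unadjusted p under 0.05, where 6.44% of all genes were higher and 7.74% lower.

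The order of the NC+CCl4 livers differed between mitosis and S phase genes. The S phase list stood at 1.22, 0.19 and 1.92 above NC in replicates 1, 2 and 3, so replicate 3 was highest where replicate 1 was highest for the members. Only 5 of 29 S phase genes were higher in replicate 1 than in replicate 3 (median difference -0.48), against 45 of 51 members. Of other mitosis genes 53 of 82 were higher there (median difference 0.19), and of all genes 54.0%. Among the members Ccnb2 (2.02), Cenpe (1.82), Kif20a (1.63) and Plk1 (1.59) exceeded replicate 3 most. Replicate 1 also had the largest 3′ to 5′ difference of the beta-actin control sets, 1.31 log2 units where the remaining 11 arrays ran from 0.704 to 1.07, and of the Gapdh sets, 0.716 against -0.205 to 0.033. The part of RNA quality in this order was not tested. In shLFAR1+CCl4 the S phase list stood at -0.04, -0.13 and 0.83.

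Markers of macrophages and stellate cells did not share the order of the NC+CCl4 arrays. Of 12 macrophage markers 8 were called higher in NC+CCl4 against NC, with Gpnmb (5.06), Lyz2 (3.94) and Cd68 (2.94) changing most on the log2 scale. The list mean was 1.51, 2.21 and 1.50 above NC, highest in replicate 2, where the members were lowest. Of 12 stellate cell and fibroblast markers 10 were called higher (Col1a1 3.81, Col3a1 3.71, Col1a2 3.70), and the list stood at 1.91, 2.04 and 1.90. In shLFAR1+CCl4 the macrophage list stood at 0.66, 0.67 and 1.84 and the stellate list at 0.43, 0.60 and 1.70, so there replicate 3 was highest in both lists as in the members. Neutrophil markers (3 of 6 called, led by S100a8 at 3.49, S100a9 at 2.66 and Csf3r at 0.76) stood at 0.97, 1.15 and 1.30 in NC+CCl4 and at 1.12, 1.26 and 0.89 in shLFAR1+CCl4. The median change of this list was 0.46 in NC+CCl4 against NC, with 2 of 6 genes below 0. Its means therefore lean on S100a8 and S100a9. Hepatocyte markers stood between -0.21 and 0.09 in the CCl4 arrays, at array means of 12.4 to 12.7 log2 units, in the top part of the range of the table, with 1 of 10 called, Cyp2e1 (lower, -0.49 ± 0.13). In the lymphocyte list 3 of 11 genes were called higher (Ptprc 2.91, Nkg7 0.75, Cd3g 0.42), with a list median of 0.05. Ptprc (CD45) is carried by all leukocytes. Of 6 cholangiocyte markers 1 was called higher (Prom1, 2.60). With a median change of 0.37 and a mean of 0.67 the list means lean on this gene. That list stood at 0.74, 0.46 and 0.82 in NC+CCl4, lowest in replicate 2 as the members were, and at 0.04, 0.33 and 0.70 in shLFAR1+CCl4, highest in replicate 3. Of 5 erythroid markers 1 was called higher (Tfrc, 1.17) and 0 lower, where 7.66% and 5.41% of all genes were. However, 4 of these 5 changed below 0, the lowest by -1.23. Of 8 endothelial markers 0 were called, of which Stab2 and Kdr had the highest means. In NC+CCl4 the lymphocyte, erythroid and endothelial lists had means above NC of 0.25 to 0.47, -0.25 to -0.07 and 0.21 to 0.30. The part of cell type shares in the members' values was not tested.

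**Figure D4:**
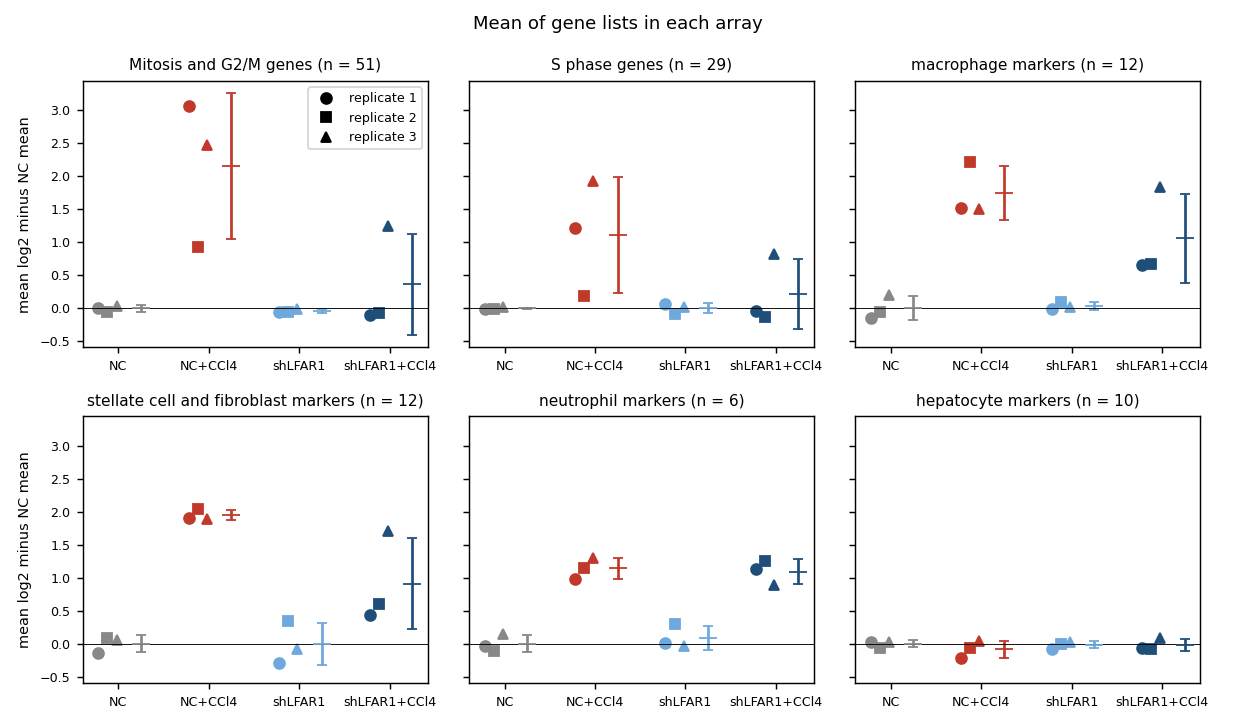
Array means of 6 gene lists, each less the mean of its list in NC (log2 units, y axis), with groups on the x axis, 1 symbol per replicate number, and a bar for the group mean ± SD (n = 3). Members run from 0.93 to 3.07 in NC+CCl4 while the stellate markers of the same arrays run from 1.90 to 2.04.

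Members also moved with each other. Over the 12 arrays 43 of 51 had a Pearson's r above 0.9 with the mean of the other members, as a description in which the NC+CCl4 arrays and replicate 3 of shLFAR1+CCl4 stand apart from the other 8. The lowest were Tpx2 (-0.35), Foxm1 (-0.19), Kif15 (0.08) and Kif2c (0.43), all 4 read at probe sets with little change. How many of all genes had an r above 0.9 with the mean of the members was not counted. Outside the lists the genes most like the mean of the members were Neurl1b (r = 0.987), Nrm (0.986), Tubb6 (0.985), Rpl41 (0.982), Haus8 (0.977), Ube2t (0.976), Ywhah (0.975), Selenoh (0.969), Psat1 (0.968) and Dll1 (0.966). Among these Tubb6, a beta-tubulin, ran from 7.51 to 9.65 in NC+CCl4 and from 5.78 to 5.94 in NC, and Rpl41, a ribosomal protein, only from 12.8 to 13.2 and from 12.5 to 12.6.

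The choice of probe set mattered for some of the 11 members that were not called. The 51 members had 116 probe sets, 35 members had more than 1, and of the 65 sets not chosen 22 were called higher in NC+CCl4 against NC and 0 lower, in a fit over all probe sets. Cdc20, Kif2c, Ncapg and Tpx2 each had another set that was called. The first of the other Cdc20 sets read 4.49, 4.52 and 4.43 in NC, 10.75, 7.08 and 9.03 in NC+CCl4, 4.72, 4.26 and 4.35 in shLFAR1, and 4.56, 4.82 and 7.49 in shLFAR1+CCl4, which is the order of arrays that the called members showed. With these sets 44 of 51 members had at least 1 set called higher. Cdc25c, Foxm1, Kif15, Kif20b, Ncapd2, Ndc80 and Nek2 had none.

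**Figure D5:**
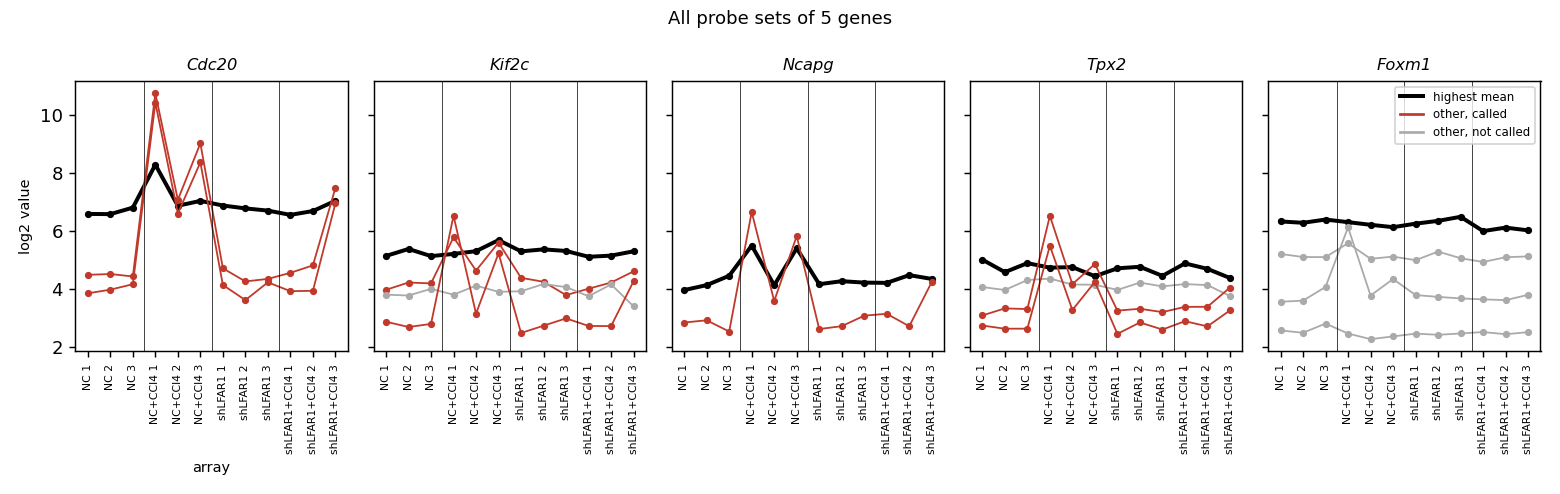
Log2 values of all probe sets of 5 genes in the 12 arrays, with the set of the highest mean in black, other sets called higher in NC+CCl4 against NC in red and other sets not called in grey. In Cdc20 the black line runs from 6.56 to 8.29 while a red line runs from 4.26 to 10.75.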

How the data were processed

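RNA of 12 mouse livers was measured on Affymetrix mouse expression arrays, 3 per group, grouped by the sample labels. The authors deposited log2 values (1.81 to 14.5), summarized and normalized with a method not given in the sources used here. Array means lay between 5.10 and 5.11, so a change in total RNA cannot be read from them, and no detection calls were used.

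Of 45101 probe sets, 64 controls were left out, 34945 had 1 gene symbol in an annotation of the platform, 932 several and 9160 none. The test was that of limma 3.58.1 under R 4.3.3 (lmFit on the 4 groups, 8 residual degrees of freedom, eBayes with an intensity trend, two-sided, Benjamini-Hochberg over 18193 genes). Errors of log2 changes are SE of this model, which pools the spread of all groups, and precision is limited by having 3 arrays a group. The labels call the replicates biological. The script was tested on simulated data. Tables, motif counts and figures were made in Python 3.11.15.

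The members and lists were chosen with earlier results of these data known. Values of every array are given for the 3 largest changes and the smallest of each role group in NC+CCl4 against NC, and of the other lists for the 3 largest called, or else the 2 brightest genes named. Replicate numbers are given in the labels. In NC+CCl4 and shLFAR1+CCl4, deviations of arrays of the same number from their group means had correlations of 0.126, 0.229 and 0.192 across genes. Arrays of unlike number in these groups ran from -0.234 to 0.0932, but replicate 3 of NC and replicate 2 of NC+CCl4 reached 0.188. The labels do not say that the number marks a pair, so a pairing is not established. Same-numbered arrays were compared as a description, and the main fit used no pairing. Alternatives were other normalizations, probe sets, floors, tests, weights, the replicate block and leaving out each array.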

Additional observations from a re-analysis of the deposited data

Results flagged for a closer look

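Probe sets outside the main readout carried a signal in 4 of the members that were not called. In NC+CCl4 against NC, tested over all probe sets with limma, the other 2 sets of Cdc20 changed by 4.47 and 4.47 log2 units, 2 of the other 3 sets of Kif2c by 1.21 and 2.18, the other set of Ncapg by 2.59 and 2 of the other 3 of Tpx2 by 1.94 and 1.67, while the sets with the highest mean changed by 0.74 (Cdc20), 0.18 (Kif2c), 0.83 (Ncapg) and -0.18 (Tpx2). The last sets of Kif2c (0.08, adjusted p = 0.824) and Tpx2 (0.11, adjusted p = 0.699) were not called. The 7 called sets were dimmer on average than the set used for their gene. Why the sets of a gene differed was not tested.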

How the results depend on the processing

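In NC+CCl4 against NC, 40 of 51 members were called higher, none of the called members changed sign in any of the 25 alternatives, and 23 kept their call in every moderated alternative that held them. The count was 44 with the most variable probe set, 42 with the mean of sets, 32 with a floor at 4, 30 by the methods' t-test with its fold threshold (6.94% of genes), 10 of the 13 members left when dim genes were removed, 15 without moderation and 0 by the methods' t-test after Benjamini-Hochberg, and leaving out 1 array gave 29 to 46. With the replicate block it was 41, and the block changed no count of the other comparisons from 0. In shLFAR1+CCl4 against NC+CCl4 array weights gave 40 calls and leaving out 1 array 0 to 45. In the interaction they gave 18 and 0 to 23. The cause was not tested, beyond fewer genes being tested where dim ones were removed. Medians moved to 1.55 (NC+CCl4 against NC) and -1.28 (interaction) with the mean of sets, and to 0.028 (shLFAR1 against NC) without dim genes. Leaving out 1 array gave -0.077 to -0.013 in shLFAR1 against NC and -2.79 to -1.45 in the interaction. Foxm1 turned from -0.12 to 0.18 with the mean of sets and to 1.01 with the most variable set. Median centring moved the median of all genes in NC+CCl4 against NC from -0.05 to -0.19. Of the 43 members with a promoter 6.98% held TTCGAA, 44.2% CCAAT on the strand of the gene, 44.2% on the other strand and 53.5% within 50 bases of the start.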
